A study of Mus musculus with 9 samples.

Results

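The genes described here encode the machinery that copies DNA at the replication fork and repackages it behind the fork. They comprise DNA polymerase alpha with its primase, polymerases delta and epsilon, the GINS complex with Cdc45, the sliding clamp PCNA and its loader RFC, the single-strand binding complex RPA, enzymes that finish Okazaki fragments, histone delivery factors and fork scaffold and protection factors. The 34 members were chosen by gene symbol, and 33 of them were measured among 18193 genes. Chaf1a was not analysed here. Where a gene had several probe sets, the brightest one, by its mean level in the 9 arrays, was used without regard to group.

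The study measured RNA of hepatocellular carcinomas and of normal liver on Affymetrix arrays of 45101 probe sets, 1 array per sample. The 5 tumours came from mice named triple knockout (TKO), whose listed genotype is RbΔ/Δ; p130Δ/Δ; p107+/-, so that both copies of Rb and p130 were deleted and 1 copy of p107 was intact, although the name says triple. These mice had been given adenovirus carrying Cre recombinase (Ad-Cre) through the spleen 4 months earlier. The 4 control livers came from wild-type adult mice without tumours, and for them no source used here gives a virus injection. Genotype, tumour state and virus therefore cannot be told apart as sources of a difference, and the animals' sexes and the cells in which Cre acted were likewise not given. The labels do not call the samples of a group separate animals, so a p-value covers only the variation among these samples. Precision is limited by the 9 arrays.

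At a replication fork, polymerase alpha with primase lays down short RNA-DNA primers, polymerase epsilon extends the leading strand and polymerase delta extends the lagging strand. RFC places the PCNA ring on primed DNA, where it tethers polymerases, the flap nuclease FEN1 and DNA ligase I. GINS and CDC45 join the MCM ring to form the active helicase. Many of these genes are classical targets of E2F transcription factors, which the retinoblastoma proteins hold in check, and most hepatocytes of a healthy adult liver are outside the cell cycle.

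Values are log2 expression, so a difference of 1 is a doubling. The median over all probe sets was 6.22 to 6.27 on each array. TrpnX, a bacterial control with no target in mouse RNA, read 3.69 to 4.36. Of the genes in the genotype, Rb1 read 8.76 to 9.38 in tumours and 7.69 to 8.33 in livers, Rbl2 (p130) 6.77 to 8.43 and 9.44 to 10.02, and Rbl1 (p107) 4.63 to 4.82 and 4.23 to 5.83. Rb1 was thus higher in the tumours (adjusted p = 0.0018) and Rbl2 lower (adjusted p = 0.00126), and since the deleted parts of the genes were not given, these probe sets do not check the labels. All 6 hepatocyte markers, among them Alb and Hnf4a, were measured in both groups without passing the test, with list means of 14.61 to 14.80 in tumours and 14.62 to 14.78 in livers. All but Hnf4a (means 12.70 and 12.50) lay near the highest value on any array, 15.55, where a change may not be seen. The 4 measured markers of cycling cells rose by 5.18 to 5.65 on the log2 scale, with list means of 11.01 to 11.66 in tumours and 5.79 to 6.32 in livers. No marker gene lay at or below the TrpnX values on all arrays. The erythroid marker Hba-a1 came near, at 4.16 to 4.26 in tumours and 4.23 to 4.47 in livers, where a change may not be seen. Of the 5 macrophage markers 3 fell (list means 7.48 to 9.07 in tumours and 9.03 to 10.17 in livers), and of the 6 stellate cell and fibroblast markers 2 rose and 1 fell (8.31 to 10.02 and 7.78 to 8.47). Of the 5 endothelial markers 2 fell, Kdr by 1.15 and Stab2 by 1.60 (list means 7.14 to 8.36 and 8.0 to 8.75), of 4 bile duct markers Sox9 rose by 1.32 and Krt7 fell by 0.29, and of 3 B cell markers Ms4a1 fell by 1.12. The 12 T and NK cell, neutrophil and erythroid markers, at differences of -0.88 to 0.71, did not pass. The 3' minus 5' log2 value of the Actb control, a sign of RNA length, was 0.61 ± 0.08 in tumours (SD, n = 5) against 0.96 ± 0.04 in livers (SD, n = 4; exact permutation test, two-sided, adjusted p = 0.0159). That of Gapdh ran the other way without passing, at -0.21 ± 0.03 in tumours (SD, n = 5) and -0.28 ± 0.05 in livers (SD, n = 4; exact permutation test, adjusted p = 0.0635). The part of these markers and of RNA length in the results was not tested. Liver 4 stood apart from the other livers in 4 of the 33 fork genes, Pola2, Pold4, Gins4 and Timeless, whose values with and without it are given below.

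The fork genes were higher in the tumours as a nearly complete set. Of the 33 measured genes 31 rose and none fell at an adjusted p of 0.05 (limma with Benjamini-Hochberg adjustment over all 18193 genes, the test behind each adjusted p of a gene given here), while Pold4 and Pole4 did not pass. Of all genes 33.5% passed, 16.1% as higher and 17.4% as lower. None of the 33 was lower at an unadjusted p of 0.05 either. The split of all called genes moved with the scaling, with 48.0% of them higher as deposited, 86.9% with arrays centred on housekeeping genes and 22.6% with arrays centred on their 75th percentile, but 31 and 29 of the 33 fork genes still rose in these 2 scalings (24.2% and 12.8% of all genes). The median log2 difference of the 33 genes was 2.29, against -0.08 over all genes tested. At 2-fold or more 28 of the 33 were higher, against 6.52% of all genes. At 4-fold or more 18 of the 33 were higher, against 2.16% of all genes, and at 8-fold or more 9 were, against 1.0%. The 5 tumour values and the 4 liver values did not overlap for 30 of the 33 genes, and they overlapped for Pold4, Pole4 and Rfc1. Across all genes 29.8% did not overlap, 14.0% of all genes with the tumours higher. In bulk tissue, a larger share of cells that express a gene and more of its RNA per cell cannot be told apart.

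**Figure D1:**
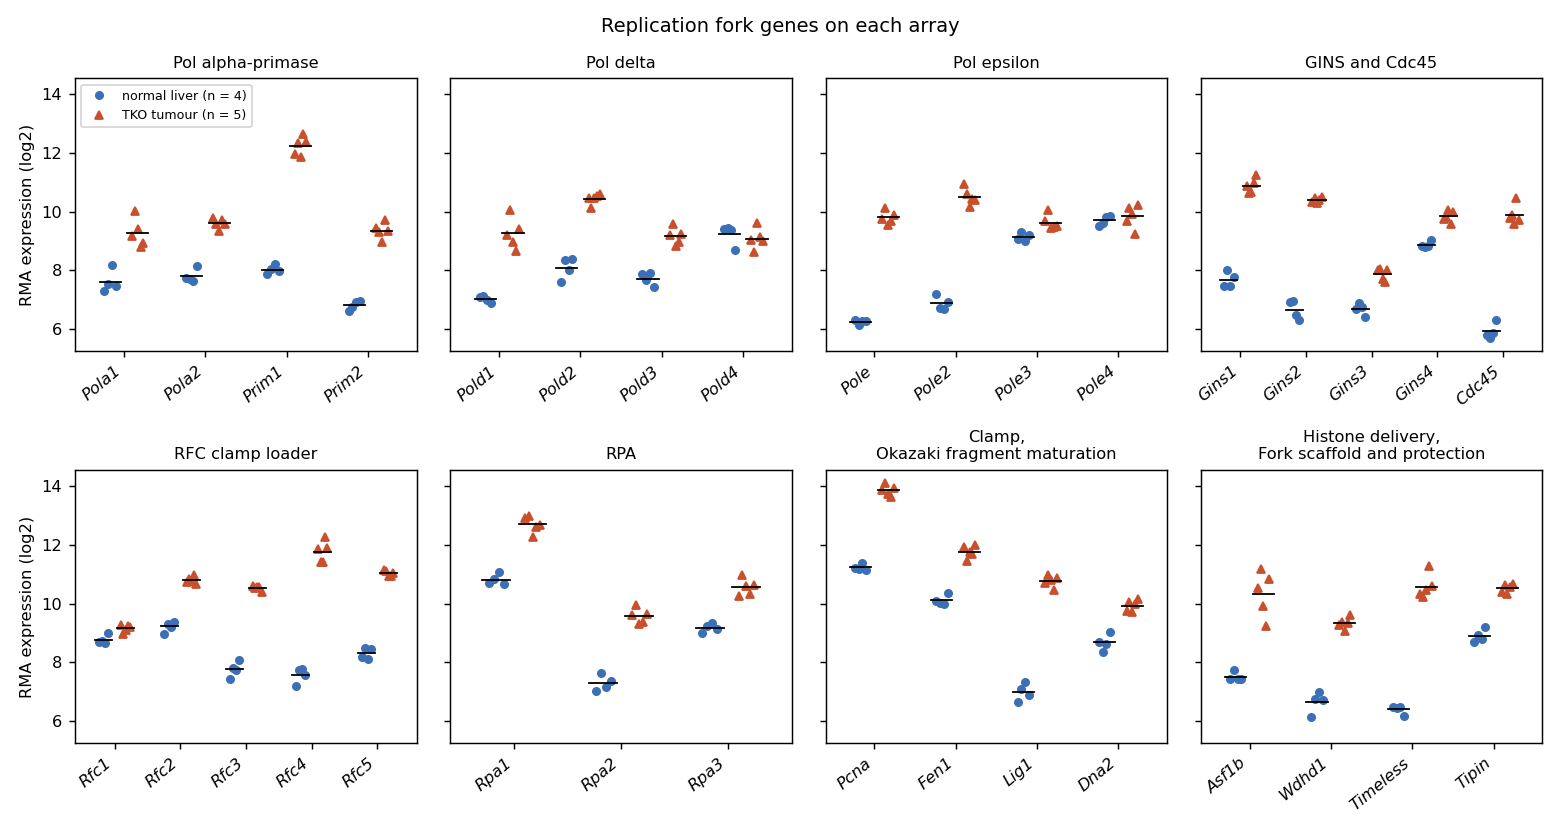
RMA expression (log2) of the 33 measured fork genes on each array, with livers as circles, tumours as triangles and group means as lines. The groups stand apart for 30 genes, and Pold4, Pole4 and Rfc1 are the genes whose groups overlap.

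The primase gene Prim1 rose 18.5-fold, Rfc4 18.3-fold and Timeless 18.1-fold. At the other end stood Pold4, at a log2 difference of -0.15 (95% interval -0.64 to 0.33), Pole4 at 0.13 (-0.30 to 0.56), Rfc1 at 0.39 (0.16 to 0.61) and Pole3 at 0.47 (0.16 to 0.79). Rfc1 and Pole3 passed, but with arrays centred on their 75th percentile neither did (0.21 and 0.30).

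**Figure D2:**
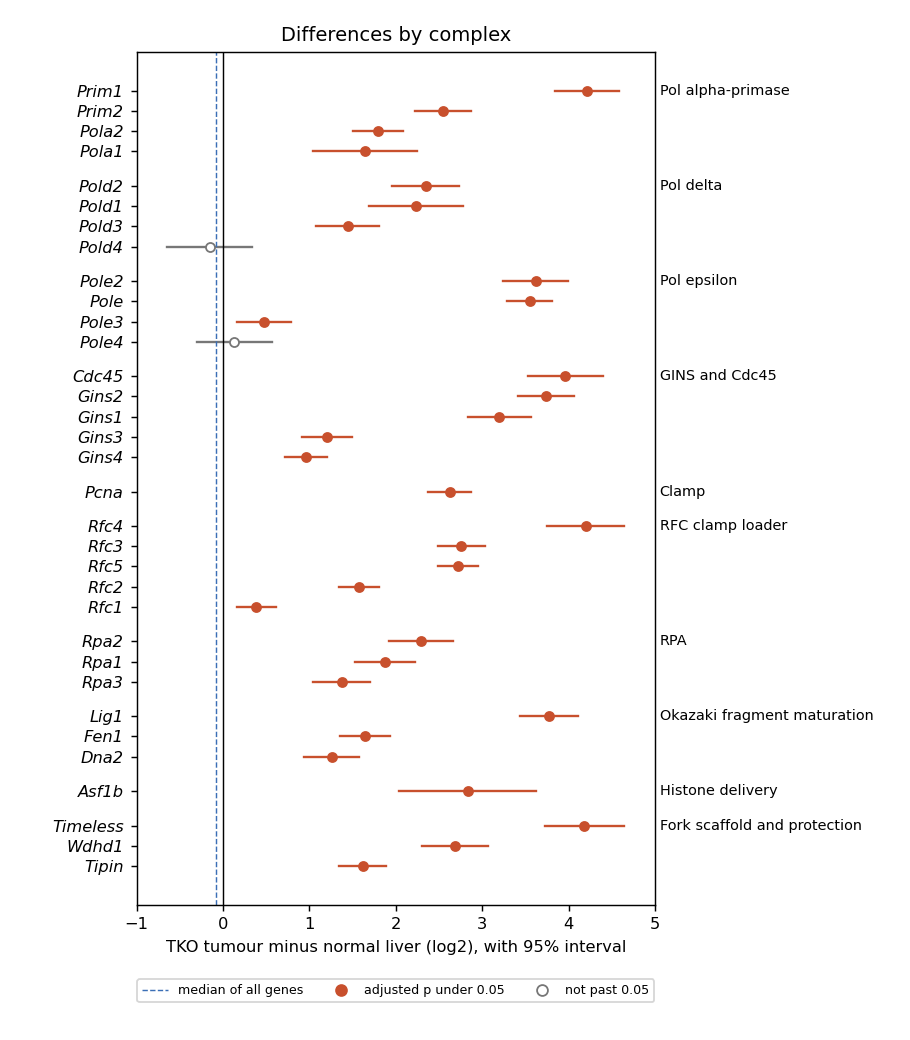
Log2 difference between tumours (n = 5) and livers (n = 4) for each gene, with its 95% interval from limma, ordered by size within each complex. Prim1 at 4.21 and Rfc4 at 4.19 lie far to the right, and Pold4, Pole4, Pole3 and Rfc1 lie near the dashed line at -0.08, the median of all genes.

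Promoter sequences are shown because most of these genes rose, by differing amounts, and because E2F proteins bind a short word near the start of many replication genes. RefSeq promoter windows (GRCm38.p6, 250 bases before to 50 after a start) were found for 27 of the 34 members, 32 windows in all. The spellings TTTCGCGC, TTTGGCGC, TTTCCCGC and TTTGCCGC of the E2F word were searched on both strands. At least 1 of them was in a window of 8 of the 27 members (29.6%) and of 550 of the 14452 measured genes with a window (3.81%), and 2.26% of all 32851 windows held one. These letters describe the windows and do not show that a factor binds there. In the lines that follow, capitals mark the E2F word on either strand, and each window is printed in the direction of its gene. Rfc3 (chr5:151651159-151651458, minus strand) held 2 words, Lig1 (chr7:13278576-13278875, plus strand) and Pole2 (chr12:69228141-69228440, minus strand) held 1 each, and Pole4 (chr6:82652816-82653115, minus strand), whose expression did not pass the test, also held 1. Lig1 also had windows at other starts, chr7:13276925-13277224 and chr7:13279015-13279314, which held no word and are not printed.
Rfc3: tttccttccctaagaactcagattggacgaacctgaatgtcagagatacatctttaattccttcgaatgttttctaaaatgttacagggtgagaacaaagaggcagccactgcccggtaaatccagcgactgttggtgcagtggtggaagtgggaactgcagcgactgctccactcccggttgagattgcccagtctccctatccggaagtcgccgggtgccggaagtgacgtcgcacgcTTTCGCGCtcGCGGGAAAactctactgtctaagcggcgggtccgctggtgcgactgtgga
Lig1: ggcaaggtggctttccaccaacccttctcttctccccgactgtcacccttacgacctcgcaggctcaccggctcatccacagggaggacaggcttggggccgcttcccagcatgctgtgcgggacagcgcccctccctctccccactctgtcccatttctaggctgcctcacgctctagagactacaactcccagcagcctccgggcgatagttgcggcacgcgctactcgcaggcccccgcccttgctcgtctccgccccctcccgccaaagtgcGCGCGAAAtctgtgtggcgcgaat
Pole2: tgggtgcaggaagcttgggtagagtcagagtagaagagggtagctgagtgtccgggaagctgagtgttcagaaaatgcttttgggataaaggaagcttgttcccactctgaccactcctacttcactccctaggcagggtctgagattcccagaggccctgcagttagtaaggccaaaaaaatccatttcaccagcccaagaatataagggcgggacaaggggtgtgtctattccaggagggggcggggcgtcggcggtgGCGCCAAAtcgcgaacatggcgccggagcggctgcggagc
Pole4: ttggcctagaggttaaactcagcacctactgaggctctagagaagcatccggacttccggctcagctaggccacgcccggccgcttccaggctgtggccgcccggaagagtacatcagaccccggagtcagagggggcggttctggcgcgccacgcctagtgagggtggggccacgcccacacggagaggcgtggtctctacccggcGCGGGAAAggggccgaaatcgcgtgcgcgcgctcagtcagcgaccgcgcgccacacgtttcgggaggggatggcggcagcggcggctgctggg

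The word began 10 bases before and at the start in Rfc3, 26 bases after it in Lig1, 10 bases after it in Pole2 and 43 bases before it in Pole4. The other 4 members with a word were Pola1, Pold1, Pold3 and Gins3. Among the 26 measured members with a window, the word was in 4 of the 14 that rose 4-fold or more and in 4 of the other 12. Prim1, Rfc4 and Timeless, which rose most, had none of these spellings in their windows, nor had Pold4 or Rfc1. The CCAAT word, on either strand, was in 14 of the 27 members (51.9%) and in 42.0% of measured genes, and the TTTGAA word in 5 (18.5%) and 15.7%.

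In the polymerase alpha-primase complex all 4 genes rose, and the small primase subunit gene Prim1 rose most. Prim1, which encodes the catalytic subunit that makes the RNA primer, read 11.97, 12.34, 11.85, 12.66 and 12.37 in tumours 1 to 5 and 7.87, 8.04, 8.22 and 7.97 in livers 1 to 4. Its groups lay 3.62 log2 units apart at their nearest values, and the difference was 4.21 (SE 0.17, adjusted p = 2.6e-07). Prim2, the large primase subunit that hands the primer to the polymerase, stood at 8.96 to 9.72 in tumours and 6.62 to 6.95 in livers, for a difference of 2.54 (SE 0.14). Pola1, the catalytic polymerase subunit, varied more, with 9.18, 10.01, 9.40, 8.79 and 8.93 in tumours and 7.29, 7.52, 8.19 and 7.48 in livers. Tumour 2 was the highest and liver 3 the highest of its group, and the difference was 1.64 (SE 0.27, adjusted p = 0.00174). Pola2, the B subunit, rose by 1.80 (SE 0.13), from 7.65 to 8.14 in livers, where liver 4 was the highest, to 9.34 to 9.77 in tumours, and by 1.91 without liver 4.

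Polymerase delta was split between 3 subunits that rose and the smallest subunit, which did not pass. Pold1, the catalytic subunit with proofreading activity, rose by 2.23 (SE 0.24) and was read by a probe set of a type that can cross-hybridise with similar genes, while its other probe set rose by 2.10. Pold2, the B subunit, read 10.47, 10.12, 10.47, 10.52 and 10.61 in tumours and 7.61, 8.35, 8.01 and 8.39 in livers, for a difference of 2.35 (SE 0.17, adjusted p = 1.6e-05). Pold3, which carries a PCNA-binding motif, stood at 8.82 to 9.56 in tumours and 7.43 to 7.92 in livers and rose by 1.44 (SE 0.16). All 3 stood apart between the groups without overlap. Pold4, the small accessory subunit, read 9.03, 8.62, 9.62, 9.13 and 9.01 in tumours and 9.41, 9.46, 9.37 and 8.71 in livers. The groups overlapped over most of their range, tumour 3 was the highest array and tumour 2 the lowest, and the difference of -0.15 (SE 0.22, adjusted p = 0.602) became -0.33 without liver 4 and 0.23 with arrays centred on housekeeping genes, neither of which passed.

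Polymerase epsilon showed the same kind of split, between its catalytic and B subunits and its histone-fold pair. Pole, the catalytic subunit, read 9.75, 10.13, 9.55, 9.68 and 9.90 in tumours and 6.32, 6.14, 6.28 and 6.28 in livers and rose by 3.55 (SE 0.12, adjusted p = 9.4e-08). Pole2, the B subunit, read 10.95, 10.59, 10.16, 10.43 and 10.40 in tumours and 7.19, 6.73, 6.70 and 6.93 in livers and rose by 3.62 (SE 0.17, adjusted p = 6.8e-07). The 2 genes rose 11.7-fold and 12.3-fold, and for both the lowest tumour lay far above the highest liver. Pole3 and Pole4 encode small histone-fold proteins that pair with each other and bind DNA and histones. Pole3 read 9.67, 10.06, 9.44, 9.46 and 9.50 in tumours and 9.07, 9.32, 9.0 and 9.21 in livers, with 0.12 between the groups at their nearest values. It rose by 0.47 (SE 0.14, adjusted p = 0.0278), a call lost without tumour 1 (0.46), liver 1 (0.45) or liver 3 (0.42), and neither of its other probe sets passed (0.31 and -0.24). Pole4 read 9.69, 10.12, 9.93, 9.24 and 10.22 in tumours and 9.52, 9.63, 9.83 and 9.86 in livers. Tumour 4 was the lowest of the 9 arrays and tumour 5 the highest, so the livers lay inside the tumour range, and the difference was 0.13 (SE 0.19, adjusted p = 0.616). Of its other probe sets, one gave 0.06 and did not pass, and a dim one, at 4.46 in tumours and 4.70 in livers, passed at -0.24 (adjusted p = 0.0433).

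GINS is a ring of 4 small proteins that, with CDC45, turns the loaded MCM ring into a working helicase. Cdc45 rose 15.5-fold, from 5.81, 5.68, 5.88 and 6.31 in livers to 9.77, 9.88, 9.57, 10.46 and 9.71 in tumours (difference 3.96, SE 0.19). The other probe set of Cdc45, brighter in livers and dimmer in tumours, rose by only 0.45. Gins2 read 10.34, 10.46, 10.30, 10.41 and 10.51 in tumours, a spread of 0.09 (SD, n = 5), and 6.93, 6.97, 6.48 and 6.31 in livers, and rose by 3.74 (SE 0.14, adjusted p = 2.3e-07). That probe set was of a type that can cross-hybridise with similar genes, and the other probe set of Gins2 rose by 4.30. Gins1 rose by 3.20 (SE 0.16), from livers at 7.46 to 8.01 to tumours at 10.65 to 11.25. The other 2 subunits rose less. Gins3 stood at 7.61 to 8.06 in tumours and 6.43 to 6.87 in livers, for a difference of 1.20 (SE 0.13), which was 1.97 with its other probe set. Gins4 read 9.74, 9.81, 10.05, 9.60 and 9.99 in tumours and 8.84, 8.81, 8.82 and 9.04 in livers and rose by 0.96 (SE 0.11), with liver 4 the highest liver, and by 1.02 without it.

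Pcna, the ring that holds polymerases on DNA, read 13.86, 14.11, 13.73, 13.61 and 13.94 in tumours and 11.22, 11.18, 11.39 and 11.13 in livers. All tumours lay at least 2.22 log2 units above all livers, and the gene rose 6.15-fold (difference 2.62, SE 0.11, adjusted p = 4.1e-07). The 5 RFC genes, whose products open the ring and close it around primed DNA, rose by very different amounts. Rfc4 rose most, from 7.20, 7.74, 7.79 and 7.57 in livers to 11.86, 11.41, 11.43, 12.26 and 11.88 in tumours (difference 4.19, SE 0.20). Rfc3 and Rfc5 rose by 2.76 (SE 0.12) and 2.72 (SE 0.10), and Rfc2 by 1.58 (SE 0.10), all 3 with tumour spreads of 0.09 to 0.12 (SD, n = 5). Rfc1 encodes the large subunit, the one that is exchanged for another protein in the alternative clamp loaders. It read 9.26, 8.96, 9.11, 9.23 and 9.20 in tumours and 8.68, 8.73, 8.65 and 9.0 in livers, so liver 4 lay above tumour 2. The difference was 0.39 (SE 0.10, adjusted p = 0.0165), and its other probe sets passed at 0.51 and 0.63.

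RPA, the trimer that coats single-stranded DNA in replication and in repair, rose in all 3 subunits. Rpa2, the subunit that checkpoint kinases phosphorylate, read 9.60, 9.95, 9.30, 9.37 and 9.64 in tumours and 7.01, 7.63, 7.14 and 7.36 in livers, for a difference of 2.29 (SE 0.16). Rpa1, the large DNA-binding subunit, rose by 1.88 (SE 0.16), from livers at 10.65 to 11.07 to tumours at 12.27 to 12.99. Rpa3, the smallest subunit, rose by 1.37 (SE 0.15), from livers at 9.01 to 9.33 to tumours at 10.25 to 10.96.

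The enzymes that process Okazaki fragments rose as well. Lig1, the ligase that seals them, read 10.69, 10.96, 10.80, 10.45 and 10.86 in tumours and 6.65, 7.09, 7.32 and 6.87 in livers and rose 13.6-fold (difference 3.77, SE 0.15, adjusted p = 2.8e-07). Dna2, a nuclease and helicase that trims long flaps, stood at 9.73 to 10.15 in tumours and 8.37 to 9.02 in livers, for a difference of 1.26 (SE 0.14). For Fen1, the nuclease that removes short flaps, the size depended on the probe set. The brighter one, of a type that can cross-hybridise, read 11.93, 11.45, 11.76, 11.67 and 11.99 in tumours and 10.09, 10.02, 9.99 and 10.36 in livers, for a difference of 1.64 (SE 0.13, 3.13-fold). The other read 11.23, 10.77, 10.88, 10.87 and 11.13 in tumours and 6.35, 6.93, 6.46 and 6.58 in livers, for a difference of 4.40 (SE 0.14, 21.1-fold). The groups did not overlap with either probe set, and the call was the same.

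Asf1b, a chaperone that hands new histones to the assembly factors and is the copy tied to dividing cells, had the widest spread among the tumours (SD 0.77, n = 5). It read 10.53, 11.16, 9.90, 9.23 and 10.84 in tumours, with tumour 4 the lowest and tumour 2 the highest, and 7.41, 7.73, 7.43 and 7.42 in livers. The groups did not overlap, and the difference was 2.83 (SE 0.35, adjusted p = 0.00041), or 2.62 to 3.11 with each array left out in turn. Wdhd1, a scaffold that links polymerase alpha to the helicase, rose by 2.69 (SE 0.17), from 6.14 to 7.0 in livers to 9.06 to 9.59 in tumours. Timeless and Tipin encode partners that travel with the fork and protect it when it stalls. Timeless read 10.32, 10.24, 10.45, 11.28 and 10.61 in tumours and 6.47, 6.45, 6.49 and 6.17 in livers, with tumour 4 the highest and liver 4 the lowest, and rose by 4.18 (SE 0.20), or by 4.11 without liver 4. Tipin read 10.41, 10.63, 10.31, 10.56 and 10.65 in tumours and 8.68, 8.92, 8.79 and 9.19 in livers and rose by 1.62 (SE 0.12).

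Whether subunits of one complex differed in their change was tested for 38 pairs, by comparing the log2 difference of the 2 genes on each array between tumours and livers (exact permutation test, two-sided, adjusted over the pairs). In 28 of the 38 pairs (73.7%) the change differed at an adjusted p of 0.05, and 25 of them reached 0.00794 before adjustment (exact permutation test), the smallest p this design allows, with an adjusted p of 0.0121. Pairs within a complex share genes, so the 28 are not separate findings, and pairs of other genes were not tested. In polymerase epsilon, Pole and Pole2 each differed from Pole3 and from Pole4 (exact permutation test, adjusted p = 0.0121 for each), with Pole2 rising 3.49 log2 units more than Pole4. Their changes were not distinguishable from each other, at -0.07 for Pole minus Pole2 (95% interval from limma -0.46 to 0.32), nor were those of Pole3 and Pole4, at 0.34 (-0.10 to 0.79). In polymerase delta, Pold2 rose 2.50 more than Pold4, Pold1 2.39 more and Pold3 1.60 more (exact permutation test, adjusted p = 0.0121, 0.0121 and 0.0223).

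In RFC, 9 of 10 pairs differed, and Rfc4 rose 3.81 more than Rfc1, a 14.0-fold difference between the 2 changes. Rfc3 and Rfc5 did not differ detectably, at 0.04 (95% interval from limma -0.28 to 0.36). In GINS, Gins2 rose 2.77 more than Gins4 and Gins1 2.24 more, whereas Gins3 and Gins4 differed by 0.24 (-0.16 to 0.64) without passing. In polymerase alpha-primase, Prim1 rose 1.67 more than Prim2 and 2.57 more than Pola1, and Pola1 minus Pola2 gave -0.15 (-0.81 to 0.50). Timeless rose 2.56 more than Tipin, and Rpa2 rose 0.92 more than Rpa3 (exact permutation test, adjusted p = 0.0121 for each). The 3 RPA genes spanned 0.92 between their largest and smallest difference, against a span of 2.50 to 3.81 in the 5 complexes of 4 or more genes, with Cdc45 counted in GINS. Probe sets of different genes can respond to RNA with different steepness, so the sizes of these contrasts are on the scale of the probe sets used. With the mean of each gene's probe sets 33 pairs differed, among them Gins3 and Gins4, and Pole and Pole2 (1.56). The mean for Pole2 takes in a dim probe set with a difference of 0.35, while Pole has no other probe set.

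**Figure D3:**
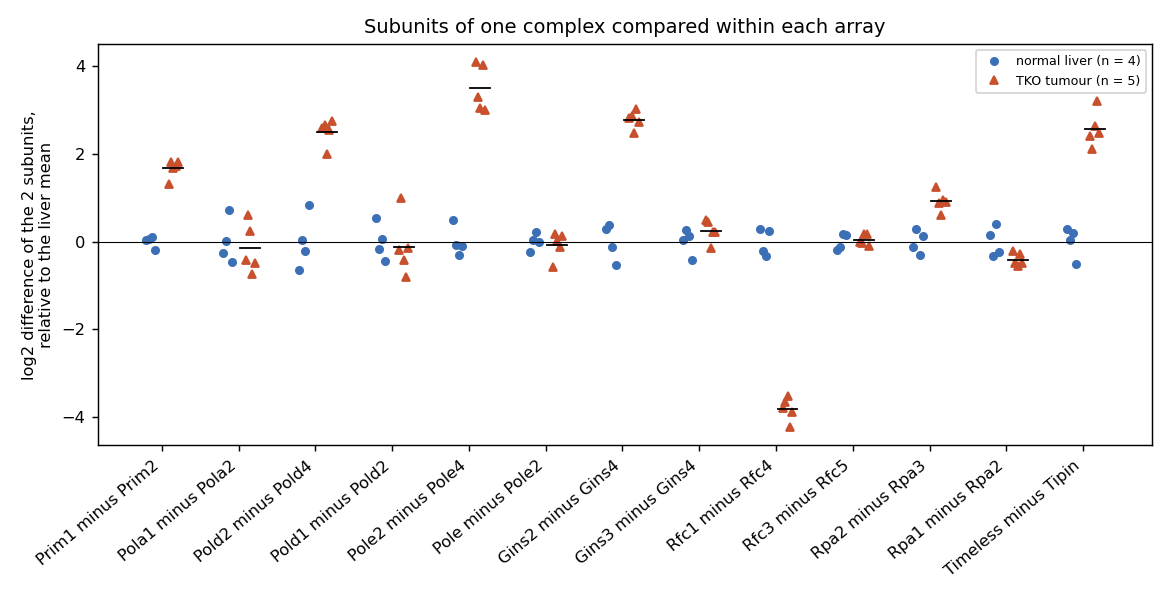
Log2 difference between 2 subunits of one complex on each array, set to a mean of 0 in the livers, for 13 of the 38 pairs, chosen after their values were seen to show wide and narrow contrasts. Tumours lie far from the livers for Pole2 minus Pole4 (mean 3.49) and Rfc1 minus Rfc4 (mean -3.81), and they overlap the livers for Pole minus Pole2, where tumour 1 lies lowest at -0.57, and for Rfc3 minus Rfc5.

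Of the 33 genes 22 had more than 1 probe set, which gave 30 other probe sets. In a fit over all probe sets 24 of these passed as higher, 1 as lower and 5 did not pass. The share of all probe sets that passed in this fit is not given here. With 1 probe set per gene, 16.1% of all genes passed as higher and 17.4% as lower. Their difference was within 0.5 log2 units of that of the probe set used in 16 cases, larger by more than that in 4 and smaller in 10. The smaller ones included probe sets that were dim in both groups, such as those of Pole2 (4.11 in tumours and 3.76 in livers, difference 0.35) and Pola1 (4.19 and 4.27, difference -0.08), which lay close to the TrpnX control. Cdc45 had a second probe set at 7.90 in tumours and 7.45 in livers, with a difference of 0.45 (SE 0.10) against 3.96 with the one used. The one used was the brighter of the pair in tumours only, so the size for Cdc45 rests on that choice. A probe set of Prim2, at 5.58 and 5.56, gave 0.02 without passing, against 2.54 and 2.13 for its others. For Prim1, Rfc3, Rfc4, Gins2, Rpa1, Rpa2 and Timeless the other probe set gave a difference of 2.03 to 4.39.

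**Figure D4:**
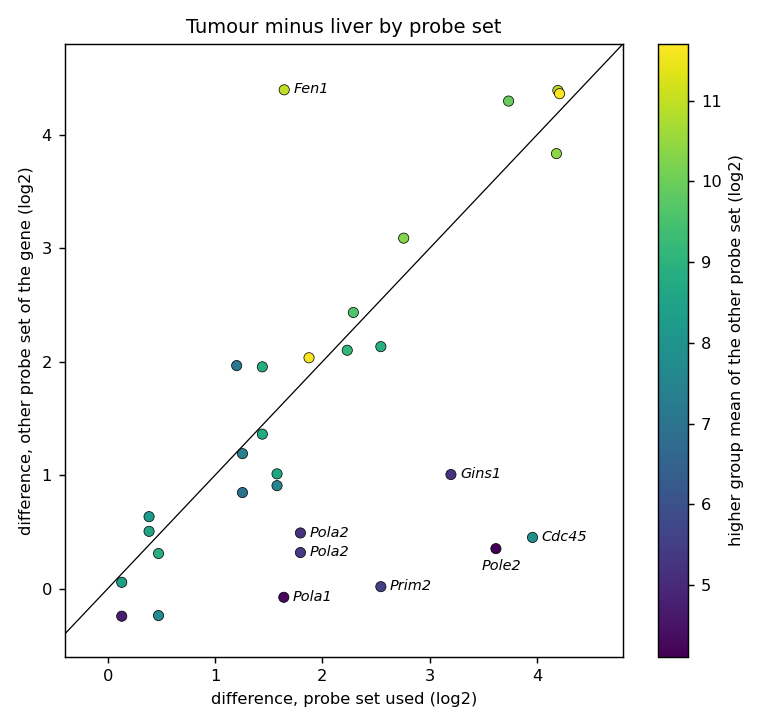
Log2 difference between tumours and livers for the 30 other probe sets of the fork genes (vertical axis) against the probe set used for the same gene (horizontal axis), coloured by the higher group mean of the other probe set, with the line of equality. Fen1 lies above the line, at 4.40 against 1.64, and dim probe sets of Pola1, Pola2, Prim2, Pole2 and Gins1, and 1 of Cdc45, lie far below it.

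Among the tumours, the fork genes did not share a single order. Tumour 2 had the highest value of the 5 tumours for 12 of the 33 genes, against 22.9% of all genes, and the lowest for 7. Tumour 3 had the lowest value for 15 genes, against 21.0% of all genes, and the highest for 2. The median deviation of the 33 genes from their tumour mean ran from -0.19 in tumour 3 to 0.09 in tumour 5, which is small beside their median difference of 2.29 from liver. Tumour 4 illustrated the mixed order, being the highest for Prim1, Rfc4, Cdc45 and Timeless and the lowest for Asf1b, Pold1 and Pole4. The median SD of the 33 genes was 0.25 among tumours and 0.19 among livers, against 0.19 and 0.16 over all genes.

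Other genes of DNA synthesis, taken from 10 lists, rose in 54 of 79 cases and fell in 3, with a median of 1.40. Of all genes 16.1% rose and 17.4% fell. All 6 genes of the MCM helicase rose, by 3.97 (Mcm2) to 6.02 (Mcm6). Of 5 genes of the alternative clamp loaders, which replace Rfc1 with another large subunit, 4 rose. Dscc1, of the loader that acts in sister chromatid cohesion, rose by 5.34 (SE 0.11), and its livers, at 3.94 on average, lay within the TrpnX values, while Rad17, of the checkpoint loader, differed by -0.06 (SE 0.13). Among 10 other clamp and fork genes 8 rose, and the PCNA-binding factor gene Pclaf rose by 6.36 (SE 0.23) while the topoisomerase gene Top1 differed by 0.09 (SE 0.07).

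Of 13 measured genes for histone handling and chromatin upkeep 12 rose, against 16.1% of all genes, with a median of 1.92. Uhrf1, which guides maintenance of DNA methylation, rose by 6.29 (SE 0.19), and Mcm3ap, the lowest of the list, stood at 0.02 (SE 0.11) without passing. Chaf1b and Rbbp4, which encode the partners of Chaf1a in the assembly factor CAF-1, rose by 3.95 (SE 0.38) and 0.65 (SE 0.22), and Asf1a, the sister gene of Asf1b, by 0.51 (SE 0.11); these 3 were chosen after their values were seen. Of 17 licensing and firing genes 11 rose and 1 fell, from Cdc6 at 5.64 (SE 0.15) to Mcm10 at -1.27 (SE 0.31). Of 7 nucleotide supply genes 5 rose and 1 fell, with the ribonucleotide reductase subunit genes Rrm2 at 6.24 (SE 0.35) and Rrm2b at -0.27 (SE 0.09) at the ends.

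Lists of other polymerases had medians nearer to 0. Their counts stand beside 16.1% of all genes that rose and 17.4% that fell. Of 8 translesion polymerase genes, whose products copy damaged DNA, 4 rose, with a median of 0.53 and a range from -0.20 (SE 0.08) for Poln to 1.14 (SE 0.23) for Mad2l2. Of 4 repair polymerase genes 1 rose, Polm by 0.79 (SE 0.12), and Dntt, at -1.32 (SE 0.48), did not pass. Of 7 mitochondrial replication genes 2 rose and 1 fell, with a median of -0.10. Primpol, a primase and polymerase, rose by 0.97 (SE 0.16) and the helicase gene Twnk fell by 0.53 (SE 0.11). The ligase genes Lig3 and Lig4 stood at 0.39 (SE 0.13, adjusted p = 0.0454) and 0.31 (SE 0.27, adjusted p = 0.405), against 3.77 for Lig1. Counts in lists this short are not read here as results about the lists. The differences between these lists and the fork genes were not tested.

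**Figure D5:**
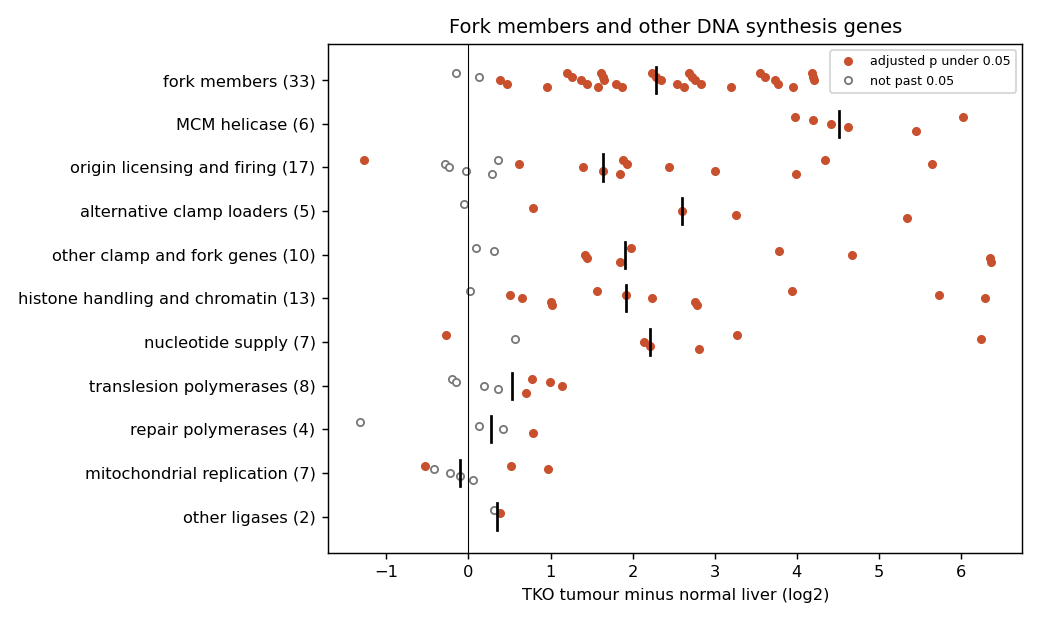
Log2 difference between tumours and livers for the 33 fork genes and for the measured genes of 10 other lists (number in brackets), with filled points past an adjusted p of 0.05 and a line at each median. The medians are 2.29 for the fork genes, 4.52 for the MCM helicase, 0.53 for translesion polymerases and -0.10 for mitochondrial replication.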

How the data were processed

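Per the submitters' processing notes, the deposited log2 values were made by the authors with RMA; its version and settings, and any scan batch, were not given in the sources used here. Per the labels' protocols, RNA was isolated with Trizol and amplified in 2 rounds, which can shorten transcripts towards their 3' ends. The table holds 45101 probe sets (values 3.13 to 15.55), of which 34945 name 1 gene on the platform annotation, giving 18193 genes. For dim probe sets RMA values can change less than the RNA does, so differences near the TrpnX level may be understated, which was not tested.

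Tumours were set against livers by the lmFit and eBayes functions of limma 3.58.1 in R 4.3.3, two-sided and with no covariates, with p-values adjusted over all genes by Benjamini-Hochberg and a threshold of 0.05. Pairs of subunits and RNA length were compared by exact permutation tests in Python 3.11.15. The limma and permutation scripts were tested on simulated data. All 34 members were to be named, and of each other list the genes with the highest and lowest difference and those called against the majority. The members and lists were chosen with earlier results of these data known, and counts over them are descriptions. Alternatives were the mean of probe sets, other probe sets, 2 other scalings, a filter on dim probe sets, limma-trend, the replicate number as a block, Xist as a covariate, limma in place of the permutation test for pairs, and each array left out. No array was taken for a duplicate, as the most alike pair had a root mean square difference of 0.311. Promoter windows are from RefSeq (GRCm38.p6).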

Additional observations from a re-analysis of the deposited data

Results flagged for a closer look

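In 6 of the 66 groups of values examined (33 genes in tumours and in livers), 1 array lay far from the rest of its group by Dixon's criterion, which chance alone meets in about 1 of 20 groups. Liver 4 was that array for 4 genes. It read 8.14 for Pola2 against 7.65 to 7.73 in the other livers, 8.71 for Pold4 against 9.37 to 9.46, 9.04 for Gins4 against 8.81 to 8.84, and 6.17 for Timeless against 6.45 to 6.49. Liver 2 read 7.73 for Asf1b against 7.41 to 7.43. Tumour 5 read 10.38 for Rfc3 against 10.53 to 10.59 in the other tumours.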

How the results depend on the processing

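Of the 31 genes that rose, 29 passed in the same direction under each of the 16 alternative fits across all genes. The others were Pole3 and Rfc1. Pole3 did not pass with the mean of probe sets (0.18) or 75th percentile centring (0.30), nor did Rfc1 with 75th percentile centring (0.21). The count of higher genes was 29 to 31 over these fits and 30 to 31 with an array left out, and none of the 33 passed as lower. Values that changed sign were those of Pole4 with the mean of probe sets (-0.018), 75th percentile centring (-0.046) and a dim probe set (-0.24), of Pold4 with housekeeping centring (0.23), and of Pola1 (-0.076) and Pole3 (-0.24) with other probe sets.

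Across all genes 2926 were higher and 3165 lower (48.0% higher). Centring on 10 housekeeping genes, of which 5 rose and 1 fell, gave 4411 and 666 (86.9%), and centring on the 75th percentile 2328 and 7982 (22.6%). The median difference of all genes was 0.31 and -0.26 in these scalings, against -0.08. With an array left out the counts were 2348 to 3251 and 2284 to 3110.

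The replicate numbers were not taken as pairs, since the deviations of same-numbered arrays correlated at -0.13, -0.07, 0.18 and -0.12 across genes. With the number as a replicate block 30 of the 33 genes rose (Rfc1, at 0.37, did not pass), and 2021 genes were higher and 1531 lower.

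Of the 28 pairs that differed, 27 did so under all 11 alternatives, and the other, Rpa1 with Rpa3, was lost without any 1 of 8 arrays. The count was 27 to 29 with an array left out, 33 with the mean of probe sets and 32 with limma over the pairs. Pairs that did not pass changed sign for Pole minus Pole2 (1.56 with the mean of probe sets, -0.15 to 0.053 with an array left out), Pold1 minus Pold2 (-0.39 to 0.064), Rfc3 minus Rfc5 (-0.026 to 0.10) and Pola1 minus Pola2 (-0.35 to 0.085).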
